A study of Mus musculus with 8 samples.

Results

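The genes described here are the synaptotagmins and the SNARE families, followed through the cell types of the mouse hippocampus. They were chosen by symbol alone: every listed gene named Syt, Stx or Vamp with a number, plus Snap23, Snap25, Snap29, Snap47 and Snap91. This gave 44 of the 30211 genes in the count matrices, with 17 synaptotagmins, 15 syntaxins, 7 VAMPs and 5 genes with a Snap symbol. Nuclei from dissected hippocampi of C57BL/6 mice, C57BL/6N in the study's methods, were sequenced by 10x Genomics droplet RNA-seq from 3 WT and 3 GKO mice at 7 months of age, and from 1 J20;WT and 1 J20;GKO mouse at 6 months. GKO mice have no intact Gsap, the gene of γ-secretase activating protein, because floxed exons were removed in the whole animal by CMV-Cre. J20 mice carry human APP with the Swedish and Indiana mutations under the PDGFB promoter. Each library is 1 mouse, so both J20 groups stand on 1 animal each.

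SNARE proteins fuse membranes. A VAMP on the vesicle winds together with a syntaxin and a SNAP-25 family protein on the target membrane, and the bundle they form pulls the membranes into contact. Synaptotagmins carry a pair of C2 domains, and those that bind calcium tie fusion to a calcium rise, Syt1, Syt2 and Syt9 in fast release and Syt7 in slower and facilitated release. Other members act away from the synapse, such as Stx6, Stx16 and Vamp4 at the trans-Golgi network, Stx7, Stx8, Vamp7 and Vamp8 on endosomes and lysosomes, and Stx17 on autophagosomes. Snap91 encodes AP180, a clathrin assembly protein that shares only the symbol with the SNARE proteins.

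The sequences upstream of 5 members are shown. In the levels below, Syt2, Syt6 and Stx7 set 1 of 13 cell types apart, and Vamp8 was highest in microglia among them. Syt10 set 1 mouse apart. Each run is the 250 bases before a transcription start in the RefSeq promoter table (GRCm38.p6), read 5′ to 3′ on the strand of the gene. Capitals mark the cyclic AMP response half-site TGACG or the PU.1 core GAGGAA, searched on both strands. For Syt2 the first of its listed starts was taken.
Syt2 (chr1:134646362-134646611, + strand): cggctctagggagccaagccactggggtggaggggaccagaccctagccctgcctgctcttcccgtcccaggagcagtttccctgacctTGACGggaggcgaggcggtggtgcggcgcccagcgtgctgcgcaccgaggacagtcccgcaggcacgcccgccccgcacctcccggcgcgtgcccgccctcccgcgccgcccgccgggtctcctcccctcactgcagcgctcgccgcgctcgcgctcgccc
Syt6 (chr3:103574995-103575244, + strand): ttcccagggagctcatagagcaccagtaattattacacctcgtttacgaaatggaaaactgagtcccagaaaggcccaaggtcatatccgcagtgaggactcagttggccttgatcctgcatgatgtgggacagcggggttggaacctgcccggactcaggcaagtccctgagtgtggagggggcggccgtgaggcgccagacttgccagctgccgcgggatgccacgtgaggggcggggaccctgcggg
Syt10 (chr15:89841861-89842110, - strand): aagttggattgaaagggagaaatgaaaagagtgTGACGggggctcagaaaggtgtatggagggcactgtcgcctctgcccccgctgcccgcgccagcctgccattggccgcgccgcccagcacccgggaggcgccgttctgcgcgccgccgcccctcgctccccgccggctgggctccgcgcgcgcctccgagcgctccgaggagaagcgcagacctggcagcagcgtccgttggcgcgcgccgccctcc
Stx7 (chr10:24149039-24149288, + strand): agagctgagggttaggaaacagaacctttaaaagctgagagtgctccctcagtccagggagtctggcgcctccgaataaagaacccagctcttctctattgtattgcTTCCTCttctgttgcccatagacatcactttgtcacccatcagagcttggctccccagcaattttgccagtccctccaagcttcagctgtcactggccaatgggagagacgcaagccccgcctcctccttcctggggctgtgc
Vamp8 (chr6:72390668-72390917, - strand): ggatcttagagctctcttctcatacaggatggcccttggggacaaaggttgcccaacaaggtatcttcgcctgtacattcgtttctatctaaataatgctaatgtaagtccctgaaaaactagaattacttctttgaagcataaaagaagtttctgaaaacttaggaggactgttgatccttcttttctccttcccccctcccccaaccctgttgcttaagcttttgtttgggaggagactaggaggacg
TGACG was found before Syt2 and Syt10, and GAGGAA, on the opposite strand, before Stx7. The windows of Syt6 and Vamp8 held neither. Of the 33 members with an entry in the table, 7 held TGACG and 4 held GAGGAA, beside 17.9% and 23.1% of the 27025 windows in the table. These matches describe letters only. Those without an entry included Snap25, Syt4, Syt5, Syt7, Syt12, Syt13, Syt17, Vamp2, Vamp3 and Vamp7.

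After filtering, 32041 nuclei remained, with 21020159 to 43310978 UMIs a mouse. The targeted gene, Gsap, was at 22.5, 22.98 and 22.3 CPM (UMIs scaled to the usual common total) over all nuclei of the WT mice, and at 19.8, 21.8 and 21.99 CPM in the GKO mice, close below, while the ranges in excitatory neurons overlapped. Whether the counted tags lie outside the deleted exons is not given in the sources used here, so Gsap does not check the labels and a GKO mouse below means a mouse labelled GKO. Any pair of libraries shared at most 21 barcodes. Of the 14 classes checked against their markers, 10 had every marker highest in their own class. The exceptions included Slc17a6 in excitatory neurons, Adamts5 and Eya4 in Pvalb interneurons and Npy in Lamp5 interneurons. Neurons of the subiculum or cortex were not among the 14 classes checked. The inhibitory class included 622 nuclei led by Zic1, Zic4 and Ebf2 that took no subtype name. A further 3162 nuclei took no name at all and entered no type, 617 of them led by Dcn, Nov and Pde11a. When gene names were sorted otherwise before clustering, a cluster of 631 nuclei with these leading genes was named CA1. Values that this second sorting, added after the data were seen, changed are given beside the results. The J20;GKO library stood apart from the other 7 in several levels or ratios, among them those of Syt10, Snap25 and Syt9.

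Of the 44 members, 40 had at least 500 UMIs in all. Vamp3, a VAMP of recycling endosomes, was listed at 0 in every library, and its locus lies within the annotated span of Camta1 on the same strand. Syt8 had 11 UMIs, Syt15 had 54 and Stx11 had 75. These 4 members passed the filter on low counts in none of the GKO comparisons. Levels below are CPM per mouse and cell type, as mean ± SD over 8 mice unless single mice are given. Tags from the 3′ end of nuclear RNA have no scale per length, so a gene is compared between cell types and not with other genes.

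Members did not share 1 pattern over 13 cell types. These leave out the Zic1 cluster, nuclei without a name, and mural or fibroblast, choroid plexus, endothelial and border macrophage nuclei. A rank below is among the 13. Among the 40, 16 were highest in a glial type, beside 50.4% of all 14680 genes with as many UMIs. Of these 16, 10 were highest in microglia. Dentate granule neurons and neurons of the subiculum or cortex were each the highest type for 5. Shares of all genes were not counted for single types, so these counts by type are not read as a trait of the members. A mean at least 2 times that of the next type, with no overlap between mice, was found for 3 members, Syt2, Syt6 and Stx7, beside 13.7% of all genes.

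Syt2, a fast calcium sensor, was concentrated in Pvalb interneurons, the fast-spiking basket cells. It had 135, 173 and 110.4 CPM there in the WT mice, 83.5, 136 and 88.1 CPM in the GKO mice, 97.4 CPM in the J20;WT mouse and 87.998 CPM in the J20;GKO mouse. Every mouse lay above all mice of the next type, subiculum or cortex neurons, at 17.98 ± 6.51 CPM. Sst interneurons followed at 8.60 ± 8.65 CPM, and CA1, CA3 and dentate granule neurons were at 3.95, 3.97 and 3.83 CPM. Types below Pvalb interneurons overlapped with their neighbours in the order of levels.

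Syt6, a synaptotagmin without an established place in transmitter release, marked Vip interneurons, which mostly inhibit other interneurons. It had 159, 91.8 and 214 CPM there in the WT mice, 104, 112 and 99.9 CPM in the GKO mice, 118 CPM in the J20;WT mouse and 159.8 CPM in the J20;GKO mouse. Oligodendrocyte precursor cells (OPCs) came next, at 31.7, 37.9 and 52.1 CPM in the WT, 25.4, 24.8 and 27.7 CPM in the GKO, and 49.4 and 63.7 CPM in the J20;WT and J20;GKO mice. Both types lay apart from each other and from every type below. In granule and CA1 neurons Syt6 was at 0.454 and 0.492 CPM.

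**Figure D1:**
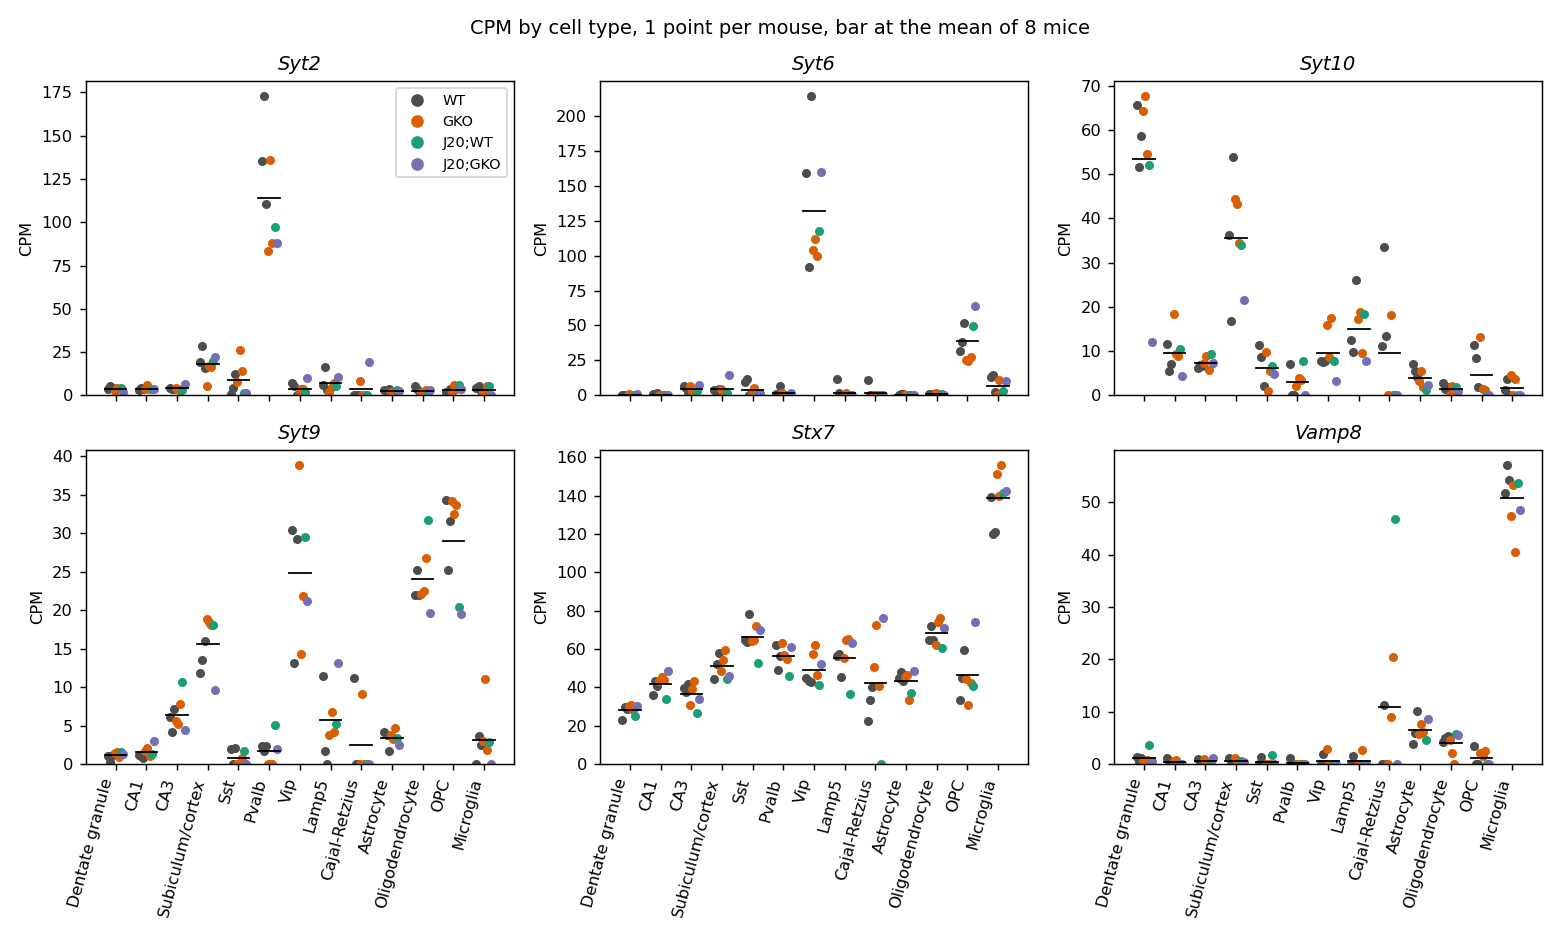
CPM of Syt2, Syt6, Syt10, Syt9, Stx7 and Vamp8 in 13 cell types, with 1 point per mouse. Syt2 peaks in Pvalb and Syt6 in Vip interneurons, Stx7 and Vamp8 peak in microglia, and for Syt10 in dentate granule neurons the J20;GKO mouse lies at 12.1 CPM below the other 7.

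Inhibitory neurons were compared with excitatory neurons, with the mouse as a block. A call needed an adjusted p below 0.05 and a log2 fold change above 0.3 or below -0.3. Members called numbered 20 of 38, beside 43.3% of all genes. Of these, inhibitory neurons had 6 higher and 14 lower, beside 23.3% and 20.1% of all genes in these directions. Syt6 (3.93 ± 0.26, log2 fold change ± SE), Syt2 (1.69 ± 0.12) and Syt9 (1.03 ± 0.15) rose most, each in 8 of 8 mice. Without the Zic1 cluster Syt9 was at 0.35 and no longer called (edgeR adjusted p = 0.091). Syt10, a calcium sensor of growth factor vesicles (-1.59 ± 0.11), Syt17 (-1.14 ± 0.13) and Syt7 (-0.94 ± 0.081) were lower by most. Without the J20;GKO mouse Syt10 was at -1.66.

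Of the exocytic core, Syt1 was at -0.11 ± 0.054, Snap25 at -0.20 ± 0.050, Vamp1 at -0.17 ± 0.11 and Vamp2 at 0.12 ± 0.091 on the log2 scale, and none of these 4 was called. Stx1a, a syntaxin of the presynaptic membrane, was lower (-0.34 ± 0.090), but not called without the Zic1 cluster (-0.13, edgeR adjusted p = 0.076), without GKO mouse 1 (-0.28) or with the library size alone as scale (-0.25). Syt1 itself had 1752 to 2775 CPM in granule neurons, 2497 to 3571 CPM in CA3 neurons and 2572 to 3669 CPM in Sst interneurons.

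Among excitatory neurons, CA1 differed from dentate granule neurons in 16 of 36 members beside 43.3% of all genes, with 8 higher and 8 lower, beside 21.2% and 22.1% of all genes in these directions. CA3 differed from granule neurons in 20 of 36 beside 48.4%, with 12 higher and 8 lower, beside 24.5% and 23.9% of all genes in these directions. CA3 differed from CA1 neurons in 15 of 36 beside 35.9%, with 9 higher and 6 lower, beside 18.8% and 17.1% of all genes in these directions. Neurons of the subiculum or cortex differed from CA1 neurons in 17 of 37 beside 38.3%, with 11 higher and 6 lower, beside 20.9% and 17.5% of all genes in these directions. The members' shares lay near those of all genes in each.

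Granule neurons led in Syt7, Syt10 and Syt17. Syt7 had 379.6, 411 and 404 CPM in their WT mice, 390.5, 366 and 407 CPM in the GKO mice, and 365 and 312 CPM in the J20;WT and J20;GKO mice. All lay above the highest CA3 mouse, at 280.003 CPM, and Syt7 was lower in CA1 (-0.86 ± 0.053) and CA3 neurons (-0.62 ± 0.050). Syt17, whose function is less known, averaged 139.7 ± 7.69 CPM in granule neurons, apart from CA1 neurons at 88.9996 ± 16.2 CPM, and was lower in CA3 neurons (-1.42 ± 0.12). Syt10 was lower in CA1 (-2.45 ± 0.14) and CA3 neurons (-2.81 ± 0.19), and at -2.49 and -2.96 without the J20;GKO mouse. Syt13, which does not bind calcium (-0.996 ± 0.078), and Vamp1, a vesicle VAMP (-0.999 ± 0.11), were also lower in CA1 neurons, and Syt16 (-1.06 ± 0.052) in CA3 neurons.

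Stx1a and Syt12 ran the other way. Stx1a had 18.3 to 25.6 CPM in granule neurons, 34.4 to 47.3 CPM in CA1 and 50.6 to 65.4 CPM in CA3 neurons, with no overlap between these types. It was higher in CA1 (0.98 ± 0.081) and CA3 neurons (1.48 ± 0.073) than in granule neurons. Syt12, a synaptotagmin that does not bind calcium, was higher in CA1 (1.65 ± 0.11) and CA3 neurons (1.40 ± 0.11). Syt4, found on dense core vesicles, was 1.11 ± 0.087 higher in CA1 than in granule neurons.

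Snap25, the plasma membrane SNARE of transmitter release, was lowest in CA1 among the excitatory types. It had 555 to 708 CPM in CA1, 779 to 1076 CPM in granule, 1106 to 1572 CPM in CA3 and 1321 to 1668 CPM in subiculum or cortex neurons. CA3 exceeded CA1 neurons by 1.01 ± 0.041, and subiculum or cortex neurons exceeded CA1 neurons by 1.16 ± 0.047, in 8 of 8 mice each. Without the J20;GKO mouse these were 1.02 and 1.15, with CA1 at -0.36 and CA3 at 0.65 against granule neurons. With all 8 mice Snap25 was 0.59 ± 0.065 higher in CA3 than in granule neurons. It was -0.42 ± 0.062 in CA1 against granule neurons, but at -0.13 and not called under the second sorting of gene names (edgeR adjusted p = 0.0636). Syt1 was called between CA3 and granule neurons (0.51 ± 0.049). It was at 0.27 ± 0.039 in CA3 against CA1 and 0.23 ± 0.054 in CA1 against granule neurons, both with an edgeR adjusted p below 0.05 but under the fold threshold, and at 0.11 ± 0.049 in subiculum or cortex against CA1 neurons. Vamp1 was higher in CA3 (0.88 ± 0.12) and in subiculum or cortex neurons (0.83 ± 0.11) than in CA1 neurons. Vamp2, its paralog, was 0.34 ± 0.096 higher in CA3 than in granule neurons, in 5 of 8 mice, and fell under the fold threshold without WT mouse 2 (0.29) or GKO mouse 3 (0.28). The same happened with the library size alone as scale (0.279) and without the filter on low counts (0.281). Vamp2 was also higher in subiculum or cortex than in CA1 neurons (0.43 ± 0.064), as was Stx1a (0.89 ± 0.067).

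Among called members, Syt9 and Syt2 rose most in subiculum or cortex over CA1 neurons, while Syt2 was not called between CA1, CA3 and granule neurons. Syt9 was scarce, at 1.18 CPM in granule (56 UMIs in all), 1.54 in CA1 (40 UMIs) and 6.39 in CA3 neurons (165 UMIs). Subiculum or cortex neurons had 15.5 CPM (642 UMIs). It was higher in CA3 than in granule (2.49 ± 0.22) and CA1 neurons (2.01 ± 0.26), and in subiculum or cortex than in CA1 neurons (3.28 ± 0.20). Without the J20;GKO mouse these values were 2.55, 2.21 and 3.50. With the second sorting, where CA1 neurons took in the cluster led by Dcn, Nov and Pde11a, the direction turned, and CA3 neurons were below CA1 neurons, at -0.89 (edgeR adjusted p = 0.00182), and subiculum or cortex neurons above them by 1.55. Syt2 (2.05 ± 0.17) and Syt10 (1.80 ± 0.13) were higher in subiculum or cortex than in CA1 neurons, while Syt12 (-1.03 ± 0.11), Syt17 (-0.73 ± 0.17) and Syt14 (-0.56 ± 0.070) were lower. CA3 neurons had less Syt16 (-1.18 ± 0.051), Syt17 (-0.83 ± 0.15) and Syt14 (-0.58 ± 0.054) than CA1 neurons. Under the second sorting Syt14 was at -0.29 in CA3, under the fold threshold, and at -0.35 in subiculum or cortex neurons, with Syt17 at -1.21 in the latter. Syt14 and Syt16 do not bind calcium.

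**Figure D2:**
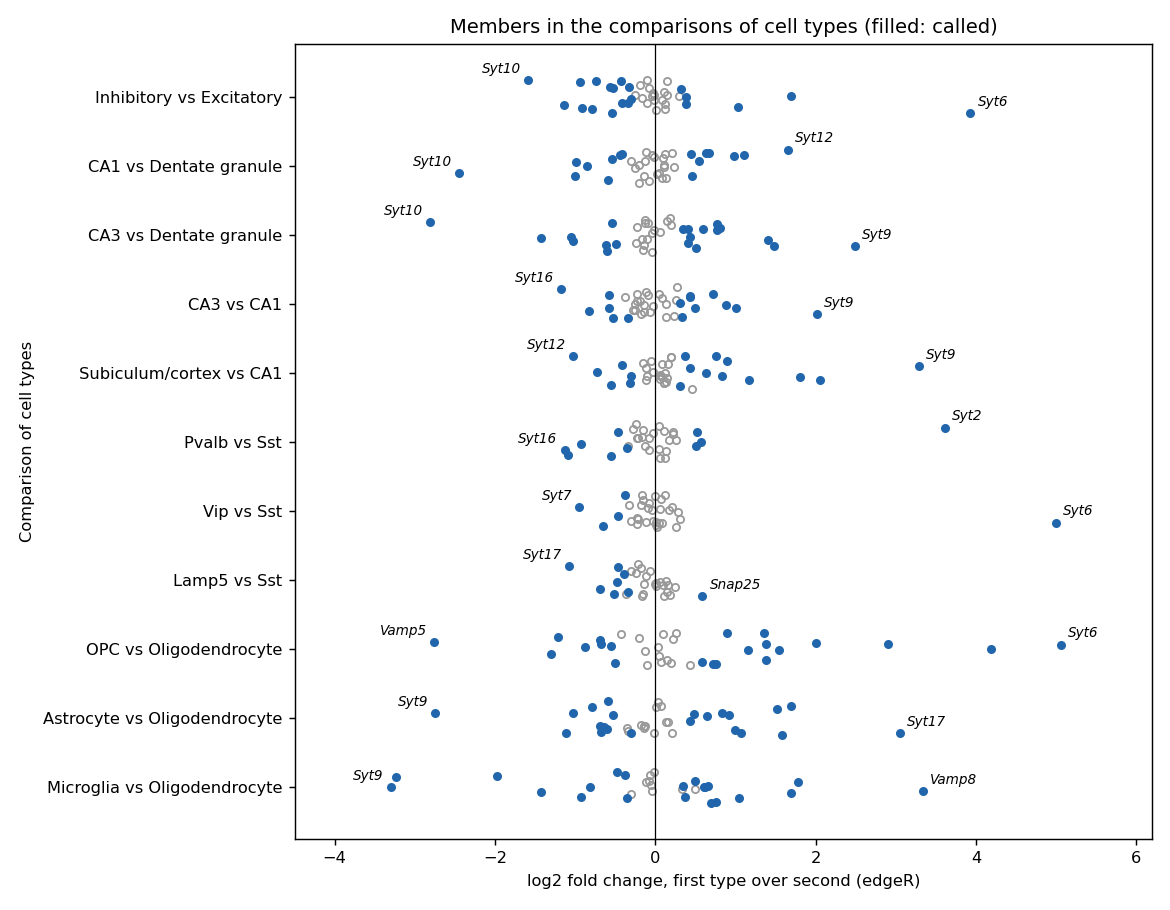
log2 fold change of each member in the 11 comparisons of cell types, first type over second, with filled points for called members. Syt6 and Syt2 lie furthest to the right in the interneuron comparisons, at 4.99 and 3.61.

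Fewer members differed between interneuron types. Pvalb against Sst interneurons gave 10 of 31 beside 22.4% of all genes, with 4 higher and 6 lower, beside 11.3% and 11.1% of all genes in these directions. Vip against Sst gave 5 of 32 beside 18.5%, with 1 higher and 4 lower, beside 9.39% and 9.09% of all genes in these directions. Lamp5 against Sst gave 8 of 29 beside 24.4%, with 1 higher and 7 lower, beside 11.6% and 12.8% of all genes in these directions. Syt2 was 3.61 ± 0.39 higher in Pvalb interneurons (edgeR adjusted p = 0.000168), and Syt6 4.99 ± 0.36 higher in Vip interneurons (edgeR adjusted p = 1.59e-06), each in 8 of 8 mice.

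Pvalb interneurons had less Syt16 (-1.13 ± 0.12), Syt5 (-1.09 ± 0.18), which binds calcium, and Stx2 (-0.93 ± 0.17), a plasma membrane syntaxin. They had more Vamp1 (0.57 ± 0.20) and Stx4a (0.52 ± 0.16), calls that DESeq2 did not make (adjusted p = 0.213 and 0.161). Vamp1 was at 0.39 and not called without WT mouse 1, and it lost the call without any other single mouse except GKO mouse 3 and the J20;GKO mouse, at 0.51 to 0.59. Stx4a was not called without WT mouse 1 (0.47). Vip interneurons had less Syt7 (-0.95 ± 0.10), Syt4 (-0.46 ± 0.094) and Vamp1 (-0.65 ± 0.21; DESeq2 adjusted p = 0.202). Vamp1 lost this call without WT mouse 3 (-0.62) or the J20;GKO mouse (-0.58), and both Vamp1 and Syt4 lost it without the mouse as a block (edgeR adjusted p = 0.0863 and 0.0935). Lamp5 interneurons, which include neurogliaform cells, had more Snap25 (0.59 ± 0.077), with 1221 to 1554 CPM, and less Syt17 (-1.08 ± 0.18), Stx1a (-0.69 ± 0.16) and Vamp4 (-0.51 ± 0.12).

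Shares within a pair of paralogs were compared between cell types and not between the genes of the pair. Syt2 made 4.63% ± 1.48 (SD, n = 8) of the UMIs of Syt2 and Syt1 in Pvalb and 0.299% ± 0.305 in Sst interneurons. Vamp1 made 38.5% ± 4.30 of the UMIs of Vamp1 and Vamp2 in granule neurons, 22.98% ± 6.08 in CA1 neurons, 37.03% ± 13.9 in Pvalb and 15.4% ± 5.24 in Lamp5 interneurons, and these ranges overlapped between granule and CA1 neurons. Pvalb interneurons had as few as 21 UMIs of this pair in a mouse.

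**Figure D3:**
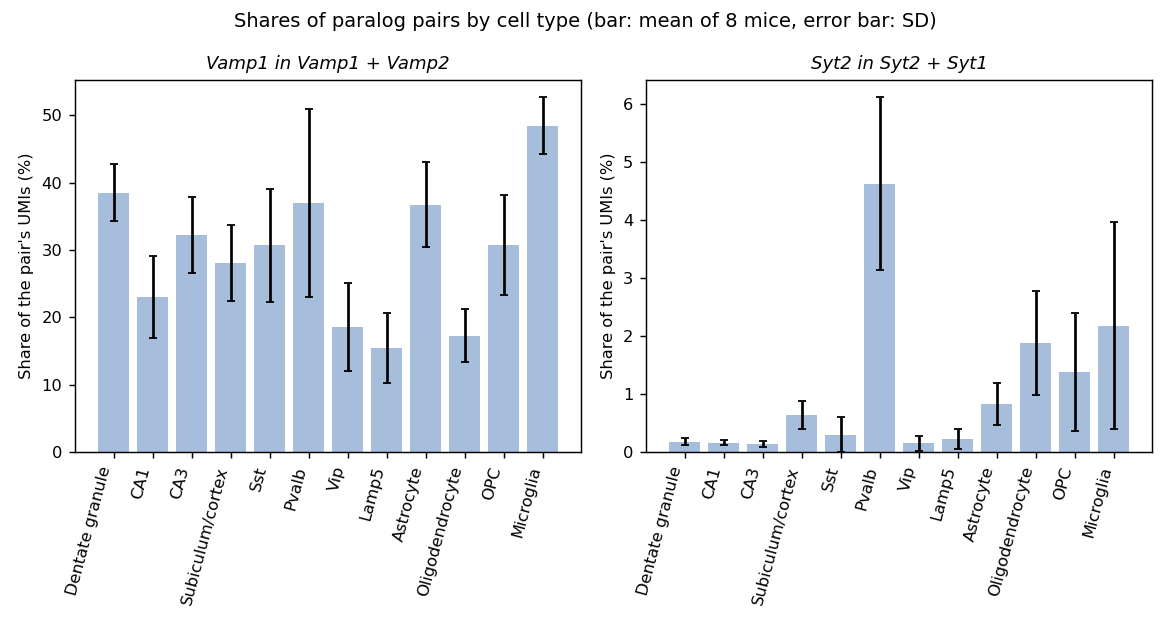
Share of Vamp1 and of Syt2 among the UMIs of each and its paralog (Vamp2 and Syt1) by cell type, as mean and SD over mice on axes from 0. The Vamp1 share is 38.5% in granule and 22.98% in CA1 neurons, and the Syt2 share reaches 4.63% in Pvalb interneurons.

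Neuronal transcripts in glia were read beside excitatory markers, which glia should lack. The 6 markers averaged 15.2% to 25.2% of their excitatory level in astrocytes of the same mouse, 7.10% to 28.999% in oligodendrocytes, 8.39% to 21.8% in OPCs and 9.76% to 33.1% in microglia. Syt1 was at 11.4% ± 2.15 in astrocytes, 5.80% ± 0.828 in oligodendrocytes, 10.3% ± 4.07 in OPCs and 6.69% ± 1.90 in microglia, within or below the range of the markers. Snap25 was at 13.3% ± 2.35, 9.42% ± 1.47 and 11.04% ± 3.84 in astrocytes, oligodendrocytes and microglia, but at 29.1% ± 4.15 in OPCs, above every marker. Snap91 and Syt16 reached 79.2% ± 16.3 and 82.04% ± 5.29 in OPCs.

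OPCs differed from oligodendrocytes in 21 of 34 members beside 62.8% of all genes, with 13 higher and 8 lower, beside 32.5% and 30.3% of all genes in these directions. Syt6 (5.06 ± 0.28), Syt16 (4.18 ± 0.11) and Syt14 (2.90 ± 0.13) led, and Stx1a (2.002 ± 0.16), Snap25 (1.55 ± 0.086) and Syt7 (1.35 ± 0.11) of the exocytic core were higher. Syt16 had 205 to 254 CPM in OPCs and 6.39 to 14.6 CPM in oligodendrocytes. Vamp5, a VAMP of the plasma membrane (-2.76 ± 0.26), Stx4a (-1.30 ± 0.11), Vamp7 (-1.22 ± 0.16) and Vamp2 (-0.88 ± 0.13) were lower. Syt1 was 0.72 ± 0.15 higher, but at -0.084 once the 6% of nuclei with the highest doublet scores in each library were left out, where Syt7 was at 0.78 and still called. In OPCs Syt7 was at 22.05% ± 4.99 of its excitatory level, beside 21.8% ± 3.61 for the marker Nrgn.

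Astrocytes differed from oligodendrocytes in 22 of 35 members beside 63.8%, with 11 higher and 11 lower, beside 33.6% and 30.2% of all genes in these directions. Syt17 had 53.1, 92.2 and 90.3 CPM in astrocytes of the WT mice, 60.8, 83.6 and 62.9 CPM in the GKO mice, and 101 and 47.5 CPM in the J20;WT and J20;GKO mice. All lay above the highest oligodendrocyte value of 15.02 CPM (3.05 ± 0.24). Syt12 (1.70 ± 0.23), Vamp1 (1.58 ± 0.15) and Stx1a (0.99 ± 0.16) were higher too, and Syt9 (-2.74 ± 0.17), Stx6 (-1.11 ± 0.085) and Syt11 (-1.02 ± 0.086) lower. The calls for Syt1 (0.92 ± 0.085) and Snap25 (0.43 ± 0.093) turned to -0.64 and -0.47 without the nuclei of highest doublet score, and Syt7 (0.83 ± 0.10) to 0.14, no longer called. Under the second sorting Syt1 and Snap25 were at 0.059 and -0.042, neither called, and Syt7 at 0.48.

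Microglia differed from oligodendrocytes in 21 of 30 members beside 65.2%, with 12 higher and 9 lower, beside 31.3% and 33.9% of all genes in these directions. Under a stricter filter on nuclei 13 of the 21 members tested were called, beside 63.6% of all genes. Stx7, a syntaxin of late endosomes, had 139, 119.8 and 121 CPM in microglia of the WT mice, 151, 139.9 and 156 CPM in the GKO mice, and 141 and 142 CPM in the J20;WT and J20;GKO mice. All lay above the highest oligodendrocyte mouse, at 76.02 CPM (0.75 ± 0.090). Vamp8, its endosomal partner, had 40.4 to 57.1 CPM in microglia and averaged 4.06 CPM in oligodendrocytes (3.34 ± 0.22). Vamp1 (1.78 ± 0.15) and Stx2 (1.69 ± 0.13) were also higher, and Syt9 (-3.30 ± 0.33), Syt11 (-3.23 ± 0.12) and Snap91 (-1.98 ± 0.15) lower, with Snap91 at -1.002 when the members were kept among the features for clustering. Vamp2 (-0.35 ± 0.11) was not called with the library size alone as scale (-0.066) or without the J20;WT mouse (-0.30).

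Among the 13 types, microglia, oligodendrocytes, OPCs or astrocytes were highest for the 16 members counted above beside all genes. Microglia were highest for Stx7, Vamp8, Vamp5, Snap23, Stx2, Stx5a, Stx8, Stx16, Vamp1 and Vamp4, with Vamp5 at 55.9 ± 13.4, Snap23 at 119 ± 15.3, Stx2 at 92.9 ± 12.97, Stx5a at 128 ± 21.8, Stx8 at 165 ± 24.6, Stx16 at 290.4 ± 38.9, Vamp1 at 51.3 ± 8.11 and Vamp4 at 122 ± 19.3 CPM. Oligodendrocytes were highest for Syt11, which does not bind calcium (754 ± 133 CPM), Stx4a (94.9 ± 15.1), Vamp7 (31.5 ± 5.42) and Stx19 (4.66 ± 2.17). OPCs were highest for Syt9 (28.9 ± 6.28) and astrocytes for Vamp2 (62.9 ± 8.67). Apart from Stx7, the mice of each of these types overlapped with those of the next. Border macrophages, outside the 13 types, had enough nuclei in 4 mice only. There Stx7 was at 148 ± 85.5 CPM (17 UMIs), Vamp8 at 60.6 (7 UMIs), Snap23 at 354 and Stx16 at 456. Stx8 was at 178 and Vamp1 at 51.8 CPM. Vamp5 (10.1), Stx2 (70.7), Stx5a (105) and Vamp4 (113) were below microglia. The levels of Stx7 and Vamp8 were thus not particular to microglia among myeloid nuclei.

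Regulators of SNARE function, 55 listed genes, were tested in the same fits. Between inhibitory and excitatory neurons 25 of 51 were called, beside 43.3% of all genes, with Sytl5 (1.17), the fusion clamp Cplx1 (1.01) and Rph3a (0.99) highest and the vesicle protein Sv2b (-2.84), the calcium sensor Doc2b (-2.43) and Sytl1 (-1.19) lowest in log2 fold change. CA1 against granule neurons gave 21 of 48 beside 43.3%, with Sv2b (4.92), Sytl2 (1.89) and Unc13b (1.15) above Stxbp6 (-4.30), Rph3a (-3.83) and Sv2c (-3.81). CA3 against granule neurons gave 28 of 48 beside 48.4%, led by the same 3 higher genes, with Sv2b at 5.56, Sytl2 at 1.36 and Unc13b at 1.33, and by Stxbp6 (-4.01), Sv2c (-3.08) and Doc2b (-2.87). Sv2b was thus the regulator that set granule neurons furthest below both CA types. CA3 exceeded CA1 neurons in Rph3a (3.14), Cplx1 (1.29) and the active zone scaffold Rims1 (1.27), and was lower in Doc2b (-2.87), Syn3 (-1.51) and Sytl2 (-0.56). Subiculum or cortex exceeded CA1 neurons in Rph3a (3.50), Doc2a (1.91) and Sv2c (1.80), and was lower in Doc2b (-1.69), the priming factor Unc13a (-0.36) and Stxbp5 (-0.35). Unc13a and Stxbp5 fell under the fold threshold with the second sorting (-0.27 and -0.29), and Stxbp5 also without the J20;WT mouse (-0.29). Both did so with the library size alone as scale (-0.27 and -0.26).

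The interneurons divided the complexins. Pvalb interneurons had more Cplx1 (0.66), Sytl2 (0.50) and Snph (0.43) and less Unc13c (-2.68), Cplx2 (-1.68) and Sytl5 (-0.84) than Sst interneurons. Vip interneurons had more Cplx2 (1.29), Rph3a (0.73) and Syn2 (0.57) and less Stxbp6 (-1.60), Sytl2 (-0.56) and Cplx1 (-0.52). DESeq2 did not call Sytl2 in either comparison (adjusted p = 0.222 and 0.211) nor Cplx1 in Vip interneurons (0.07). Sytl2 lost the edgeR call in Pvalb interneurons without WT mouse 1 (0.42), WT mouse 3 (0.45), GKO mouse 2 (0.49) or the J20;WT mouse (0.43), and in Vip interneurons without GKO mouse 3 (-0.44) or the J20;WT mouse (-0.51). Lamp5 interneurons had more Sv2c (3.97), Rims1 (1.26) and Rph3a (1.16) and less Unc13c (-2.52), Stxbp6 (-2.30) and Sytl5 (-1.06). Among glia, the log2 fold changes over oligodendrocytes were highest in OPCs for Unc13c (5.72), Rims1 (3.53) and Syn2 (3.19), in astrocytes for Snph (2.68), Syn2 (2.40) and Unc13c (2.39), and in microglia for Snph (1.24), Ykt6 (1.13) and Stxbp5 (0.85). Sytl2 was the regulator furthest below oligodendrocytes in all 3, at -3.19, -5.37 and -6.12, followed by Stxbp3 (-2.45) and Stxbp2 (-1.97) in OPCs, Sv2a (-2.54) and Sytl5 (-2.50) in astrocytes, and Stxbp6 (-4.94) and Sytl5 (-2.30) in microglia. With the members and regulators kept among the features for clustering, Stxbp6 was at -2.43 in microglia.

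GKO mice were compared with WT mice in 14 cell types for the effect of Gsap loss. None of the 482 tests of a member was called by edgeR, and 0 of the 162094 tests of any gene (0%). An unadjusted p below 0.05 was found in 8 tests of members, 1.66%, beside 1.74% of all gene tests. DESeq2 called 0 members, with 3 at an unadjusted p below 0.05, 0.62% beside 0.58% of all gene tests. With same-numbered mice paired by a replicate block, edgeR called 0 members and 10 of all gene tests, and 29 tests of members had an unadjusted p below 0.05, 6.02% beside 4.52% of all gene tests. Unpaired, the lowest adjusted p of a member was 0.999 (edgeR). Of the regulators, 0 of 622 tests were called and 12 had an unadjusted p below 0.05. In simulated counts with a true log2 fold change of 1, the unpaired fit called 83% of changed genes in excitatory neurons. It called 70.5% in inhibitory neurons and 58.5% in Pvalb interneurons, so changes of this size can go uncalled. The simulation used a fixed dispersion for all genes and no batch difference, and it changed only genes above a set mean count. These shares therefore do not give the power for scarce members or for mice of different batches.

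Syt6, Syt2, Syt9, Syt12 and Snap23 were among these 8 tests. Syt6 differed by -0.58 ± 0.26 in OPCs, with the WT mice above the GKO mice, and by -0.53 ± 0.24 in Vip interneurons, where the groups overlapped. Syt9 had 11.9, 13.5 and 16.04 CPM in subiculum or cortex neurons of the WT and 18.8, 18.5 and 18.03 CPM in those of the GKO mice (0.45 ± 0.17). Snap23, the SNAP-25 paralog of most cells, had 54.9, 52.5 and 48.7 CPM in Vip interneurons of the WT and 77.8, 80.3 and 68.3 CPM in those of the GKO mice (0.54 ± 0.21). Both sets lay apart. The log2 difference within the first and the second batch, as dated by the deposited data, was 0.64 and 0.30 for Syt9 and 0.50 and 0.55 for Snap23. Syt12 in subiculum or cortex neurons (-0.55 ± 0.23) and Syt2 in Sst interneurons (1.83 ± 0.63) overlapped between genotypes. None of the 8 passed the adjustment.

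The J20;GKO and J20;WT mice, 1 each and from different batches, allow no test, and genotype, batch and mouse cannot be told apart. A log2 ratio between them was set beside the largest ratio found when any pair of WT or any pair of GKO mice was set against each other. In excitatory neurons 10 of 38 members passed that largest ratio, beside 27.4% of all genes, and in inhibitory neurons 6 of 34 beside 17.3%. In excitatory neurons the ends were Syt10 (-1.24) and Syt9 (-0.55), and Syt6 (2.42) and Vamp1 (0.43). Syt10 and Syt6 passed their largest same-genotype ratios of 0.63 and 1.31, and the others did not. In inhibitory neurons the ends included Vamp2 (-0.41), and Vamp7 (0.80) and Syt12 (0.51). Vamp7 passed its largest same-genotype ratio of 0.39, while Vamp2 and Syt12 stayed within theirs of 1.16 and 0.78.

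Syt10 in granule neurons set the J20;GKO mouse apart from the others. It had 65.7, 51.6 and 58.7 CPM in the WT mice, 64.3, 67.7 and 54.6 CPM in the GKO mice and 52.1 CPM (exact Poisson 95% interval 45.9 to 58.8) in the J20;WT mouse. In the J20;GKO mouse it had 12.1 CPM (8.86 to 16.3), intervals that cover counting error only. The J20 ratio was -2.09, against a largest same-genotype ratio of 0.35. Of the 8 granule markers, 5 were lowest in the granule neurons of this mouse, among them Prox1 at 184 CPM (238 to 279 in the other 7), Lct at 23.8 (42.5 to 62.2), Dsp at 11.6 (17.3 to 58.5) and Tdo2 at 0 (7.12 to 17.1). The summed level of the list was 2873 CPM, against 2886 to 4490.1 CPM in the other 7. Their part in the result was not tested. In granule neurons 11 of 34 members passed the same-genotype ratios, beside 34.8% of all genes. The other types gave 12 of 32 beside 26.9% in CA1, 6 of 31 beside 23.9% in CA3 and 6 of 36 beside 24.2% in subiculum or cortex neurons, 6 of 21 beside 28% in astrocytes, 6 of 22 beside 24.3% in oligodendrocytes, 3 of 16 beside 22.6% in OPCs and 3 of 15 beside 23.2% in microglia. In subiculum or cortex neurons the Syt10 ratio was -0.65, within the 1.67 between mice of 1 genotype.

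**Figure D4:**
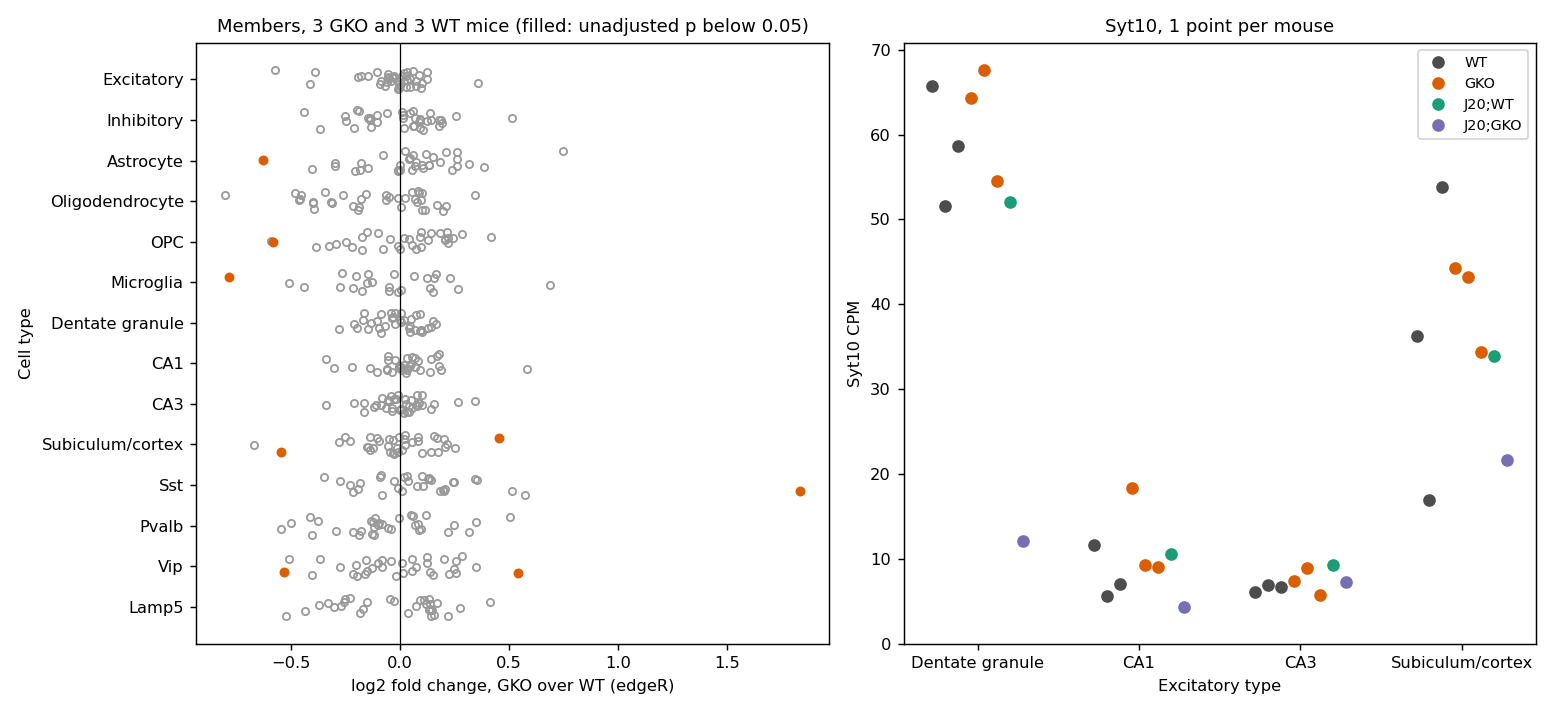
Left, log2 fold change of GKO over WT for each member in 14 cell types, with 3 mice a group; right, CPM of Syt10 per mouse in 4 excitatory types. No member was called on the left, and on the right the J20;GKO mouse lies at 12.1 CPM in granule neurons while the other 7 lie between 51.6 and 67.7 CPM.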

How the data were processed

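Nuclei of 8 mice were measured, 1 library each. The authors deposited raw UMI counts per gene and nucleus from Cell Ranger, aligned to mm10 per the labels. Whether introns were counted is not given in the sources used here. The submitters' processing notes also name Seurat 3.0 and R 3.6.2. The synaptotagmin and SNARE genes, the regulators and the comparisons were chosen with earlier results of these data known.

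Of 33314 deposited nuclei, 32041 with 200 to 7500 genes and at most 5% mitochondrial UMIs were kept, with medians of 4579 to 6438.5 UMIs a nucleus. Nuclei were clustered in Seurat 5.3.0 with the members and regulators left out of the features, and clusters were named from marker lists by a rule completed after the clusters had been seen, so the types may differ from those of the study. Doublets were kept in the main analysis. Scrublet (scanpy 1.11.5) called 1, 2 and 2 nuclei in 3 libraries, where its threshold did not work, and 4.06% to 6.29% in the others.

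UMIs were summed per mouse and type, with at least 10 nuclei each, and fitted over all genes with edgeR 4.0.16 (TMM, filterByExpr, quasi-likelihood test) in R 4.3.3, with Benjamini-Hochberg adjustment over all genes tested and the mouse as a block between types. Members were called at adjusted p below 0.05 with a log2 fold change above 0.3 or below -0.3. Mice of all 4 groups entered the comparisons of types. DESeq2 1.42.0 and other settings were alternatives, among them a clustering with gene names sorted otherwise, added after a repeat in that order had moved cluster boundaries, and scripts were tested on simulated data. J20 ratios used a prior count of 0.5 and at least 50 UMIs in the pair. Members named were the exocytic core (Syt1, Syt2, Syt7, Stx1a, Vamp1, Vamp2 and Snap25 among it), the 3 largest called changes in each direction per comparison, members specific to 1 type or highest in glia, those at an unadjusted p below 0.05 in GKO mice and the ends of the J20 ratios. Counts cover all members, but the single results of 1 member and 1 marker are not reported here. The promoters and motifs shown were chosen after values were seen.

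Same-numbered WT and GKO mice deviated together over all nuclei (r = 0.670, 0.268 and 0.334 across 17585 genes, which are not independent), so the numbers were treated as pairs in an alternative with the replicate block. The pairing comes from these correlations and is not stated by the labels. A pair of different numbers reached r = 0.424, above numbers 2 and 3, and in inhibitory neurons number 2 was at 0.0116. By the dates in the data, WT mouse 1 and GKO mouse 1 formed batch 1, the other WT and GKO mice and the J20;GKO mouse batch 2, and the J20;WT mouse batch 3. None of the 6 pairs of WT or of GKO libraries agreed within sampling noise.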

Additional observations from a re-analysis of the deposited data

Results flagged for a closer look

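In 11 of 158 sets of 8 mice, 1 mouse lay further from the other 7 than Dixon's critical value of 0.526 for the gap over the whole range allows. Chance flags about 1 in 20 such sets, and the 8 mice belong to 4 groups. The J20;GKO mouse accounted for 8 of the 11.

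For the Snap25 log2 ratio of CA1 over granule neurons, the J20;GKO mouse was at -0.95 against -0.59 to -0.32 (gap over range 0.578). For the Syt10 log2 ratio of CA3 over granule neurons, the J20;GKO mouse was at -0.67 against -3.23 to -2.36 (gap over range 0.66). For the Snap25 log2 ratio of CA3 over granule neurons, the J20;GKO mouse was at 0.039 against 0.43 to 0.71 (gap over range 0.588). For the Syt9 log2 ratio of subiculum or cortex over CA1, the J20;GKO mouse was at 1.39 against 2.54 to 3.25 (gap over range 0.616). For the Vamp8 log2 ratio of microglia over oligodendrocytes, GKO mouse 3 was at 5.37 against 2.94 to 4.08 (gap over range 0.529). For the Syt7 log2 ratio of microglia over oligodendrocytes, GKO mouse 3 was at -1.07 against -0.069 to 0.70 (gap over range 0.566). For the Stx1a log2 ratio of microglia over oligodendrocytes, the J20;WT mouse was at -2.01 against 1.03 to 2.001 (gap over range 0.759). The Vamp8 and Stx1a ratios rest on few counts. Vamp8 had 69 UMIs in oligodendrocytes of all 8 mice, with 0 CPM in the lowest mouse. Stx1a had 176 UMIs in oligodendrocytes, and in microglia its lowest mouse was at 6.18% of its excitatory level. The share of Syt2 in Syt2 and Syt1 in CA3 was 0.259% in the J20;GKO mouse against 0.0900% to 0.131% (0.758). Syt7 in granule neurons stood at 312 CPM in the J20;GKO mouse against 365 to 411 CPM (0.541). Syt10 in granule neurons stood at 12.1 CPM in the J20;GKO mouse against 51.6 to 67.7 CPM (0.711). Syt12 in CA1 stood at 41.6 CPM in the J20;GKO mouse against 27.6 to 30.9 CPM (0.761). Without the J20;GKO mouse, the named members kept their calls between cell types except Vamp1 in Vip against Sst interneurons, at -0.58 (edgeR adjusted p = 0.0705).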

How the results depend on the processing

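Among the counts of members, paralog shares and J20 counts, 311 alternative values stayed within the tolerance used and 9 moved. For single genes named, 2789 alternatives kept direction and call, 52 lost the call, 2 gained it and 6 reversed. DESeq2 called 5 members in Pvalb against Sst, 3 in Vip against Sst and 5 in Lamp5 against Sst interneurons, and without the replicate block Vip against Sst gave 3. Leaving out 1 mouse gave 7 to 10, 3 to 6 and 6 to 9 members in these comparisons, the lowest for Vip without WT mouse 3 or without GKO mouse 3, with 3 each. Shares of all genes were not set beside these counts, so whether all genes moved alike is not shown. Under the stricter filter on nuclei 13 of the 21 members tested differed between microglia and oligodendrocytes, given above beside the share of all genes. Without called doublets the share of Syt2 in Syt2 and Syt1 in astrocytes was 2.22%, and 1.63% when gene names were sorted otherwise before clustering, an alternative added after the data were seen, which also changed the calls given in the report for CA1 neurons and astrocytes. Reversed were Syt1 in OPCs (-0.084) and astrocytes (-0.64) and Snap25 in astrocytes (-0.47) over oligodendrocytes without the highest doublet scores, a setting added after the data were seen, and Snap25 in astrocytes (-0.045) without called doublets. The second sorting reversed Syt9 in CA3 against CA1 neurons (-0.89) and Snap25 in astrocytes over oligodendrocytes (-0.042). For GKO against WT the paired fit with the replicate block called 0 members, with 29 at an unadjusted p below 0.05 (6.02% beside 4.52% of all gene tests). The batch term called 0 with 24 (4.98% beside 4.34%), and leaving out each mouse gave 0 to 0. Of all gene tests in this comparison 0 were called without the block, 10 with it, 11 when batch was a term and 3 by DESeq2. The causes were not tested beyond the settings' own construction. Interneuron types hold 324 to 490 nuclei, which limits the precision of their low members.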
